A study of Homo sapiens with 9 samples.

Results

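The genes described here encode the proteasome: the catalytic core, the regulatory particle, the activators and the chaperones that assemble them. They were taken by symbol, as every probe whose name begins with PSMA, PSMB, PSMC, PSMD, PSME, PSMF or PSMG followed by a number. This gave 77 probes for 48 genes, among 43906 named probes for 30818 genes. A gene was tested when its probe had a detection p under 0.05 on at least 3 of the 9 arrays, and 45 of the 48 proteasome genes passed, among 15387 genes in all. The 3 that did not pass are PSMA8, PSMB9 and PSMB11.

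The arrays, Illumina bead chips with human probes, measured whole-tumour RNA of Hep3B, a human hepatocellular carcinoma line. The cells had been placed by surgery in the livers of immunodeficient Nod/Scid mice and had grown for about 5 weeks. Each animal then had a single intravenous injection, and the tumours were taken 24 hours later. The injection was dilution buffer in the first group, empty liposomes in the second and MRX34 in the third, with 3 arrays in each group. All groups thus share the line, the host strain and the site of growth, and the empty liposomes serve as the control for the carrier of MRX34. The labels leave out the dose, the age of the animals and whether each array came from its own animal. The p-values therefore cover the spread among these arrays, which may be technical. All values come from 1 cell line.

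MRX34 carries a synthetic copy of miR-34a in liposomes. This microRNA stands under the control of p53 and lowers many transcripts through pairing with its seed. The mature human sequence in RefSeq (GRCh38.p14, chr1:9151735-9151756, minus strand) is shown because it is the agent tested, with the seed, bases 2 to 8 from the 5′ end, in capitals.
hsa-miR-34a-5p: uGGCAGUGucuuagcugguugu

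The proteasome is the protease that removes most short-lived and misfolded proteins of the cell after they have been tagged with ubiquitin. Its core is a barrel of stacked rings. The outer alpha rings form the gate, and the inner beta rings carry the active sites. A regulatory particle with a base of ATPases and a lid binds the ubiquitin chain, removes it and feeds the unfolded protein into the barrel. Dedicated chaperones build core and base, and the transcription factor NFE2L1 raises the genes of all these subunits together when proteasome activity falls short. In interferon-treated and in immune cells, 3 beta subunits are exchanged for PSMB8, PSMB9 and PSMB10, which gives the immunoproteasome.

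The tumour markers of the line were bright on all arrays. AFP, alpha-fetoprotein, lay between 15.2 and 15.5 log2 units on the 9 arrays, and GPC3, glypican-3, between 12.4 and 13.4. Of 20 leukocyte markers, 12 passed the filter and 7, among them PTPRC and CD3E, lay above background on no array. The summed background-subtracted intensity of the leukocyte markers was 2170 to 5709 in dilution buffer, 1330 to 5460 in empty liposomes and 4117 to 6090 in MRX34. These sums carry no normalization between arrays, so their ranges do not compare the groups at equal array brightness. Empty liposomes 3 and MRX34 1, alike in mean intensity (325 and 323), had sums of 3136 and 4117. Empty liposomes 2 and MRX34 3 (491 and 496) had sums of 5460 and 5802. PECAM1 was the only tested marker of 5 for endothelium, and DCN and COL1A1 were those tested of 5 for fibroblasts. Mean background-subtracted intensity per array ran from 163 (empty liposomes 1) to 616 (dilution buffer 2), and 13690 to 20459 named probes lay above background. The mean level of GNMT and OTC, liver enzymes, ran from 7.73 to 14.3 log2 units over the arrays and was highest on dilution buffer 3 and empty liposomes 1. In whole tumours, a smaller number of cells of a type and less RNA per cell cannot be told apart, and whether mouse RNA was read by the human probes was not tested.

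Nearly all proteasome genes were detected in these tumours, and their median spread within groups was smaller than that of all genes. Their median level was higher, at 10.9 log2 units against 7.68 over all genes, so these spreads do not compare genes of like level. The probe used lay above background on all 9 arrays for 41 of the 45 tested genes. The exceptions were PSMA7 (3 arrays), PSMB8 (4), PSMD9 (5) and PSMC4 (8). The median SD within groups was 0.237 log2 units over the proteasome genes and 0.342 over all genes tested. It was lowest for PSMD7, a lid subunit, at 0.0778, and highest for PSMC4, an ATPase of the base, at 1.22. The heat map of levels by array shows most values within 0.5 log2 units of the mean of their gene.

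**Figure D1:**
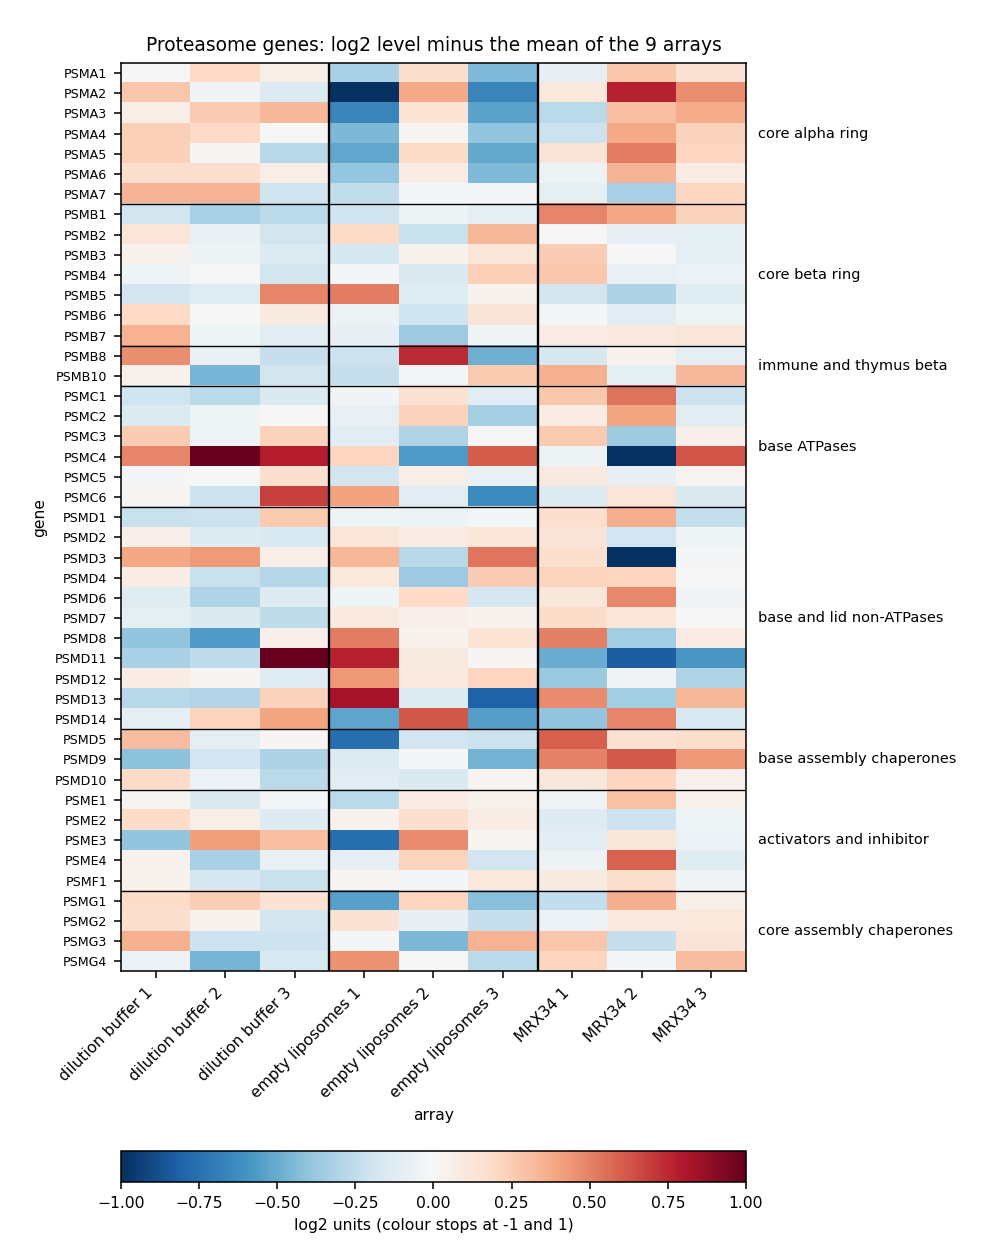
Level of each of the 45 tested proteasome genes (rows, by subcomplex) on each of the 9 arrays (columns, by group), as log2 level minus the gene's mean over the 9 arrays, with the colour scale stopped at -1 and 1. PSMA1 to PSMA6 are low on empty liposomes 1 and 3, PSMB1 and PSMD9 are high on the 3 MRX34 arrays, and PSMC4 and PSMD3 are low on MRX34 2.

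MRX34 was first compared with the equally weighted mean of both control groups. No proteasome gene passed the test, limma's moderated test with Benjamini-Hochberg adjustment over 15387 genes at an adjusted p under 0.05, and neither did any other gene (0%). At an unadjusted p under 0.05, 3 of the 45 proteasome genes were higher after MRX34 (PSMD9, PSMB1 and PSMD5), where 6.88% of all genes were, and 1 was lower (PSMD11), where 4.24% were. All 3 MRX34 arrays lay above all 6 controls for PSMB1 and PSMD9, against 4.85% of all genes, and below them for PSMD11, against 2.11%. These shares are close to those of all genes. Without empty liposomes 2 the count of higher genes was 5 (9.92% of all genes), and without empty liposomes 1 that of lower genes was 0 (4.95%). The values were higher in 30 genes and lower in 15, with a median log2 difference of 0.12. Over all genes tested the median was 0.04 and 55% were higher. The 95% interval of the difference lay within 1 log2 unit of 0 for 40 of the 45 genes and for 10797 of all 15387. It lay within 0.5 log2 units for 10 of the 45 and for 1490 of all genes.

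**Figure D2:**
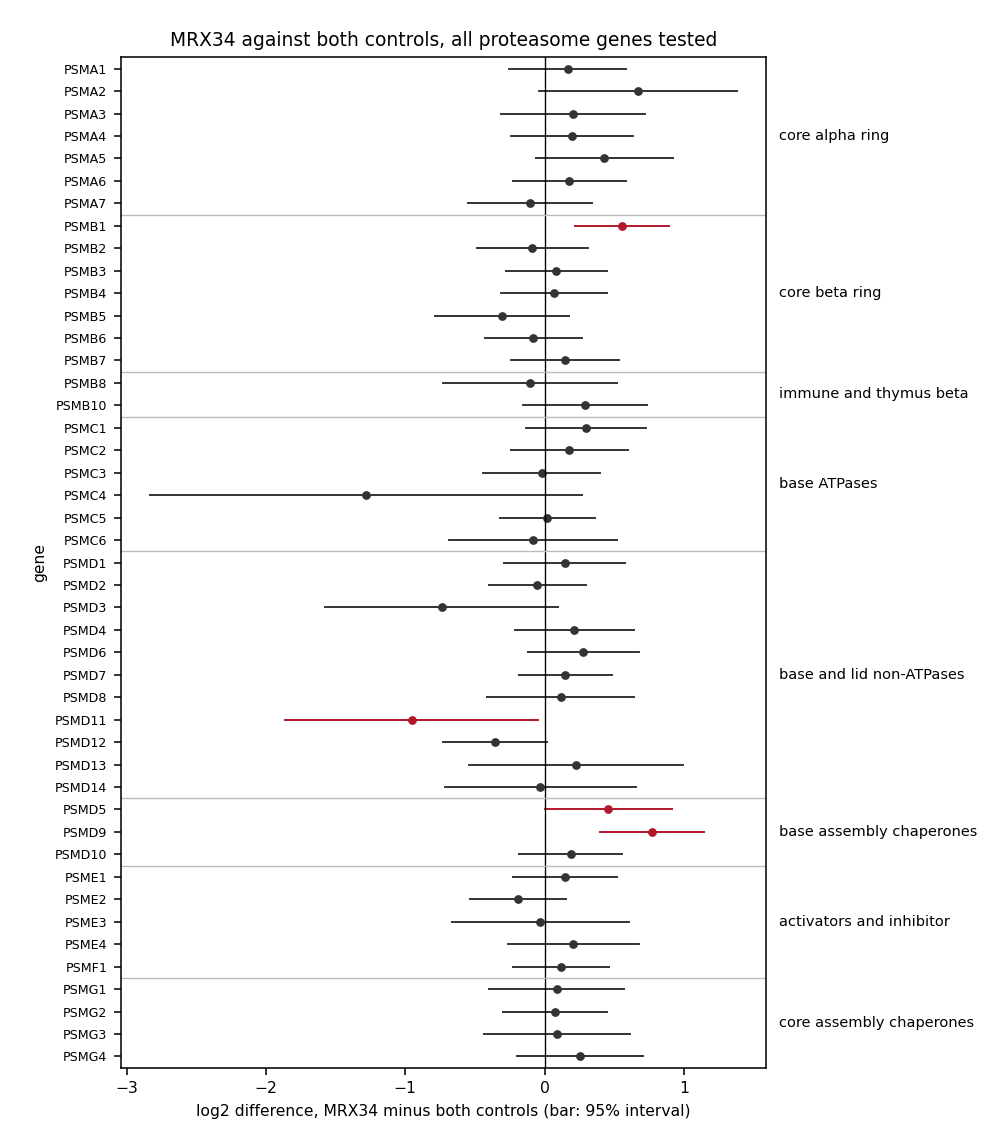
Log2 difference, MRX34 minus both controls, for the 45 tested proteasome genes by subcomplex (points, with 95% intervals as bars); red marks an unadjusted p under 0.05. Intervals of 40 genes lie within 1 unit of 0, as do those of 10797 of all 15387 genes, and that of PSMC4 is the widest.

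Among the chaperones of the base, which hold the ATPases during assembly and leave the finished particle, all 3 had higher values after MRX34, with a median of 0.46. PSMD9 measured 4.99, 5.21 and 5.09 log2 units on the dilution buffer arrays, 5.26, 5.38 and 4.93 on empty liposomes, and 5.90, 6.01 and 5.83 on MRX34. The 3 MRX34 arrays were the 3 highest and stood clear of both control groups. The mean was 5.92 ± 0.0911 over the MRX34 arrays (SD, n = 3) and 5.14 ± 0.170 over the control arrays (n = 6), a difference of 0.77 on the log2 scale (SE 0.167; adjusted p = 0.246). Among markers of other cells, PECAM1 of the endothelium measured 5.71 to 6.01 on the MRX34 arrays and 4.90 to 5.53 on the controls, and like PSMD9 it passed the filter only through MRX34. The other 4 endothelial markers lay above background on no array. Of the 12 tested leukocyte markers 6 were higher and 6 lower, with a median of 0.06. At an unadjusted p under 0.05, 3 were higher (6.88% of all genes) and 0 lower. Among these 3, CD3D lay above background on 3 MRX34 arrays, 1 dilution buffer array and 0 empty liposome arrays. Like PSMD9, CD3D passed the filter only through MRX34. The fibroblast marker DCN differed by -1.90 (SE 0.771, adjusted p = 0.423), with overlap. COL1A1, the other fibroblast marker tested, differed by -0.03 (SE 0.164). Against empty liposomes DCN differed by -2.47 and COL1A1 by 0.18. The fibroblast markers COL3A1, LUM and ACTA2 lay above background on no array. The part of these cells in PSMD9 or PSMB1 was not tested. PSMD9 was a dim gene: it lay above background on all 3 MRX34 arrays, but on 1 of 3 in each control group. It thus passed the filter only through the group in which it was high, so the filter itself favours a higher value, and its controls lay mostly at background. Its difference was 0.37 without background correction and 1.25 in the series table, which differs in how the background was treated.

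PSMD5, a second chaperone of the base, measured 8.22, 7.82 and 7.92 in dilution buffer, 7.15, 7.72 and 7.70 in empty liposomes, and 8.50, 8.06 and 8.08 in MRX34. The MRX34 arrays overlapped dilution buffer and lay above empty liposomes. The difference from both controls was 0.46 (SE 0.204; adjusted p = 0.447). PSMD10, gankyrin, which is also known as an oncoprotein of liver cancer, differed by 0.19 (SE 0.164), and its other 2 tested probes by -0.18 and -0.40, so that its direction depended on the probe.

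The promoters of PSMD9 and PSMD5 are shown because both hold the core of the antioxidant response element, the motif that NFE2L1 and its relative NFE2L2 bind. It was searched as TGACNNNGC, on both strands of the 250 bases before transcript starts in RefSeq (GRCh38.p14), and is in capitals below; it overlapped none of the other motifs searched. A gene may have several starts, and 51 windows stood for 42 proteasome genes; a gene counts when any window holds the motif. It was found in 13 of these 42 (31.0%) and in 13.2% of 27305 genes. A match describes letters and is no binding site. Among the tested genes with a match, values after MRX34 were higher in PSMD9 (0.77), PSMD5, PSMA4, PSMB3, PSMC5, PSME1, PSME4, PSMG1 and PSMG2. They were lower in PSMD12 (-0.35), PSMD3 (-0.74) and PSME2. PSMB9, which also held a match, was not tested for a difference.
PSMD9 (chr12:121888540-121888789, plus strand): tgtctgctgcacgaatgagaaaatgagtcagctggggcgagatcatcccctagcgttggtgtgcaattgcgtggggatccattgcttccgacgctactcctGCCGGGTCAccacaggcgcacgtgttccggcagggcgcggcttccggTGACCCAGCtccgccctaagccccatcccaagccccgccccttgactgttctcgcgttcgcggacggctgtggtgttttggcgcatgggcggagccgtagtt
PSMD5 (chr9:120842923-120843172, minus strand): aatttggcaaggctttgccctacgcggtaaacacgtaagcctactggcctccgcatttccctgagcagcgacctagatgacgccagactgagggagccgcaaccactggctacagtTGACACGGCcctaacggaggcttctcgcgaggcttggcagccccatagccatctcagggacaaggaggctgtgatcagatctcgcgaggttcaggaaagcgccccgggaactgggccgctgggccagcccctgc

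In the alpha ring, which forms the gate and the docking surface of the core, 6 of 7 members had higher values after MRX34, with a median of 0.20. PSMA2 differed by 0.67 (SE 0.317) and PSMA5 by 0.43 (SE 0.220). PSMA1, PSMA3, PSMA4 and PSMA6 had differences between 0.17 and 0.20, and PSMA7 differed by -0.10. A second probe of PSMA1 differed by -0.28 and that of PSMA6 by 0.01. None had an unadjusted p under 0.05.

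The beta ring had 4 of 7 members higher and 3 lower, with a median of 0.07. PSMB1, a beta subunit with no active site, measured 12.95, 12.81 and 12.86 in dilution buffer, 12.93, 13.08 and 13.04 in empty liposomes, and 13.61, 13.52 and 13.36 in MRX34. As for PSMD9, the MRX34 arrays were the 3 highest and the groups did not overlap. The mean was 13.50 ± 0.127 over the MRX34 arrays (SD, n = 3) and 12.94 ± 0.104 over the control arrays (n = 6), a 1.47-fold difference, 0.55 on the log2 scale (SE 0.152; adjusted p = 0.326). It was the only member of the ring with an unadjusted p under 0.05. The other subunits without an active site, PSMB2, PSMB3 and PSMB4, differed by -0.09, 0.09 and 0.07.

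The 3 catalytic subunits of the standard core did not share a direction. PSMB5, the chymotrypsin-like subunit that bortezomib binds, measured 12.68, 12.75 and 13.35 in dilution buffer, 13.37, 12.75 and 12.90 in empty liposomes, and 12.68, 12.56 and 12.74 in MRX34. Its 2 highest arrays were dilution buffer 3 and empty liposomes 1, those with the highest GNMT and OTC, and the difference of -0.30 (SE 0.215) was -0.11 without both. PSMB6, the caspase-like subunit, measured 12.89, 12.68 and 12.77 in dilution buffer, 12.64, 12.49 and 12.82 in empty liposomes, and 12.68, 12.58 and 12.64 in MRX34. The MRX34 values lay inside the range of the controls, with a difference of -0.08 (SE 0.156). PSMB7, the trypsin-like subunit, measured 12.82, 12.44 and 12.37 in dilution buffer, 12.40, 12.12 and 12.44 in empty liposomes, and 12.56, 12.58 and 12.60 in MRX34. Its MRX34 arrays lay above the empty liposomes and inside the range of dilution buffer, with a difference of 0.15 (SE 0.173).

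Of the exchanged subunits, PSMB10 alone lay above background on all 9 arrays. The immune counterpart of PSMB7, it measured 10.26, 9.75 and 10.03 in dilution buffer, 9.98, 10.20 and 10.47 in empty liposomes, and 10.57, 10.11 and 10.54 in MRX34. The groups overlapped, and the difference was 0.29 (SE 0.200; adjusted p = 0.583). PSMB8, the counterpart of PSMB5, measured 5.73, 5.20 and 5.03 in dilution buffer, 5.05, 6.01 and 4.77 in empty liposomes, and 5.11, 5.30 and 5.18 in MRX34. Its probe lay above background on 4 arrays and its other 3 probes on none. The difference was -0.11 (SE 0.280), and it became 0.08 without empty liposomes 2, its highest array.

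PSMB9, the counterpart of PSMB6, lay above background on MRX34 2 alone by 1 probe and on no array by the other. Its brighter probe measured 4.79, 5.04 and 4.57 in dilution buffer, 5.91, 4.76 and 4.76 in empty liposomes, and 5.26, 5.26 and 5.05 in MRX34. The high value on empty liposomes 1, the dimmest array, was not above background there. PSMB11, the beta subunit of the thymus, and PSMA8, the alpha subunit of the testis, lay above background on no array. Interferon-related genes around the immunoproteasome had no common direction. The transcription factor IRF1 differed by 0.43, and the peptide transporters TAP1 and TAP2 by -0.04 and 0.20. TAPBP, tapasin, which loads peptide onto class I molecules, differed by -0.69 (SE 0.240; adjusted p = 0.383), and its MRX34 arrays overlapped the controls.

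The lid held the only member with a lower level and an unadjusted p under 0.05. Of the 11 subunits of base and lid that are no ATPases, 6 had higher and 5 lower values, with a median of 0.12. PSMD11, a lid subunit, measured 7.66, 7.74 and 9.60 in dilution buffer, 8.76, 8.08 and 8.00 in empty liposomes, and 7.49, 7.17 and 7.40 in MRX34. All MRX34 arrays lay below all controls, and dilution buffer 3 stood far above the rest. The mean was 7.35 ± 0.169 over the MRX34 arrays (SD, n = 3) and 8.31 ± 0.743 over the control arrays (n = 6), a difference of -0.95 (SE 0.406; adjusted p = 0.440). The 2 highest arrays were those with the highest GNMT and OTC; the difference was -0.52 without both, -0.64 without dilution buffer 3 and -0.45 with the level of these enzymes as a covariate. DCN, too, was highest on these arrays, at 9.40 and 9.68 against 5.26 to 8.37 on the other 7. COL1A1, the other fibroblast marker tested, measured 5.48 and 5.14 there, against 4.77 to 5.24 on the other 7. PSMD12, another lid subunit, differed by -0.35 (SE 0.166). Its second tested probe differed by -0.04.

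Other subunits of the regulatory particle stayed close to the controls. PSMD1 and PSMD2, the scaffolds of the base, differed by 0.14 and -0.05. PSMD4, a receptor for ubiquitin chains, differed by 0.21, and PSMD14, the enzyme that cuts the chain from the substrate, by -0.03. The lid subunits PSMD6, PSMD7, PSMD8 and PSMD13 had differences between 0.12 and 0.28, and the second probe of PSMD13 differed by -0.33. Of the 6 ATPases, PSMC1 and PSMC2 differed by 0.30 and 0.18, and PSMC3, PSMC5 and PSMC6 by -0.02, 0.02 and -0.08. The second probes of PSMC1 and PSMC6 differed by -0.06 and 0.32, so that neither gene kept its sign over its probes.

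**Figure D3:**
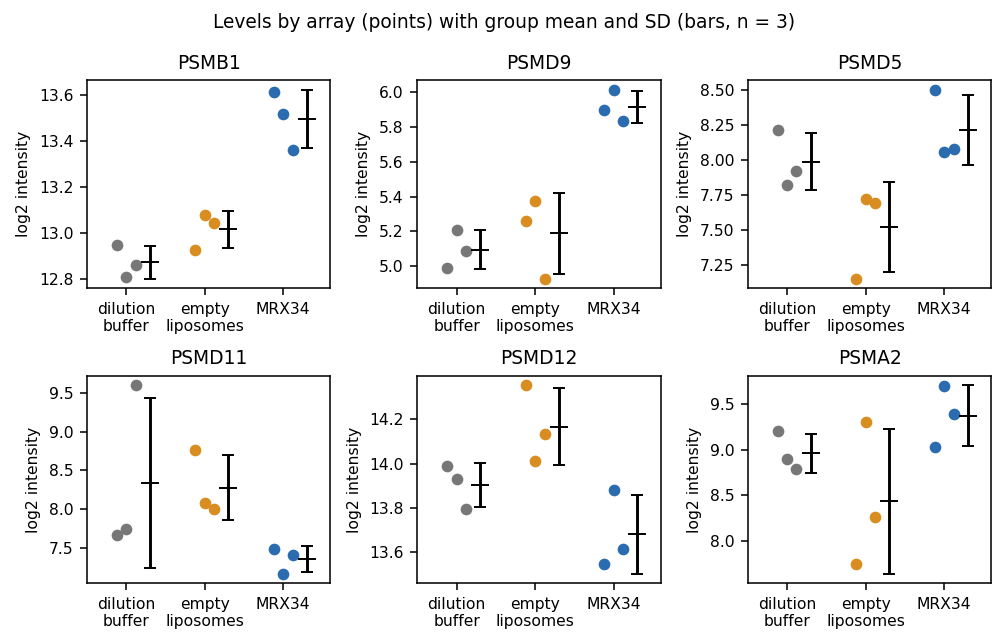
Log2 level of PSMB1, PSMD9, PSMD5, PSMD11, PSMD12 and PSMA2 on each array (points, 3 per group; each panel has its own axis) with the group mean and SD (bars, n = 3). The MRX34 arrays lie above all controls for PSMB1 and PSMD9 and below them for PSMD11, and the other panels overlap at least 1 control group.

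PSMC4 had the difference of largest size among the 45 genes, -1.28 (SE 0.692, adjusted p = 0.504). That of the lid subunit PSMD3 was -0.74 (SE 0.374). By the probes used, both differences rested on 1 array. These genes were singled out after their values were seen. PSMC4 measured 8.31, 8.86 and 8.60 in dilution buffer, 8.04, 7.25 and 8.43 in empty liposomes, and 7.77, 4.68 and 8.45 in MRX34. MRX34 2 was below background, and MRX34 1 and 3 lay inside the range of the controls. The other 2 probes of PSMC4 were also lowest on MRX34 2, at 4.57 and 5.16, where the lowest of the other 8 arrays was 6.57 and 5.75. The 6.57 was MRX34 1, which by that probe lay below all controls (6.86 to 9.59), with MRX34 3 at 7.82. These 2 probes differed from both controls by -1.65 (SE 0.712) and -0.85 (SE 0.618). PSMD3 measured 6.60 on MRX34 2 and between 7.93 and 8.75 on the other 8. Without MRX34 2 the differences by the probes used were -0.14 (SE 0.334) for PSMC4 and -0.18 (SE 0.247) for PSMD3.

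A gene over 1 log2 unit lower on MRX34 2 than on each of the other 8 arrays was not a property of the proteasome alone. It was found for 2 of the 45 proteasome genes (4.44%) and for 365 of all genes (2.37%). At over 2 log2 units it was 1 proteasome gene, PSMC4, and 89 of all genes (0.578%). MRX34 2 was among the brighter arrays, with a mean intensity of 512.

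**Figure D4:**
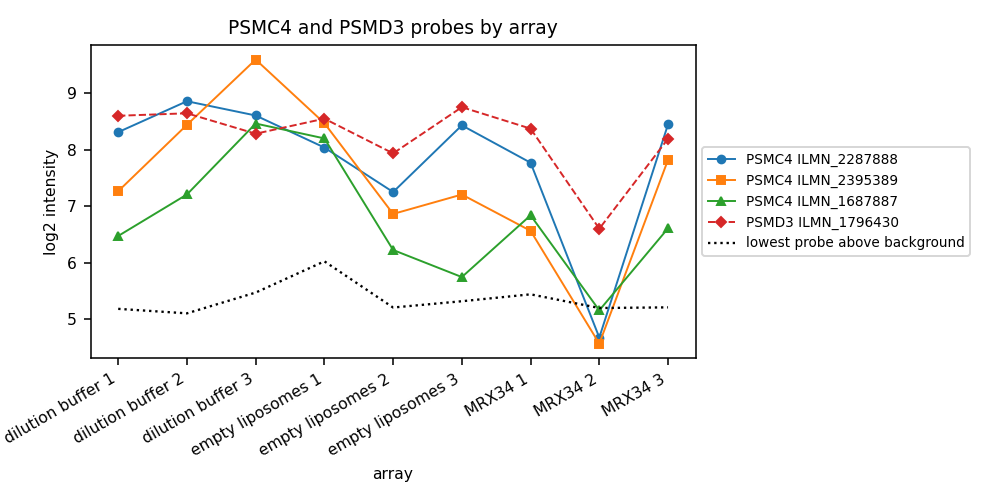
Log2 level by array of the 3 tested probes of PSMC4 (solid lines) and the probe of PSMD3 (dashed line), with the lowest level among probes above background on each array (dotted line). All 4 probes are lowest on MRX34 2, where those of PSMC4 measure 4.68, 4.57 and 5.16.

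Of the activators, which open the gate of the core without ATP, and the inhibitor PSMF1, 3 of 5 had higher values. PSME1 and PSME2, the interferon-inducible pair, differed by 0.15 and -0.19. The second tested probe of PSME1, above background on 6 arrays, differed by 0.65 (SE 0.225), with the MRX34 arrays at 6.04, 5.98 and 6.02 and the controls between 4.95 and 5.81. The probes of PSME1 thus differed in size and not in sign. PSME3, the nuclear activator, differed by -0.03 and its second probe by -0.14. PSME4, which caps cores in the nucleus, differed by 0.21 and PSMF1 by 0.12. The chaperones of the core, PSMG1 to PSMG4, had differences of 0.09, 0.07, 0.09 and 0.25, and the second probe of PSMG4 differed by -0.08.

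MRX34 was then compared with empty liposomes, the control that shares its carrier. No proteasome gene passed limma's test at an adjusted p under 0.05, and no other gene did (0%). At an unadjusted p under 0.05, PSMD9, PSMD5, PSMB1 and PSMA2 were higher, 4 of 45 against 6.29% of all genes, and PSMD12 was lower, 1 of 45 against 3.06%. The arrays did not overlap for 5 genes that were higher (PSMB1, PSMB7, PSMD5, PSMD9 and PSMD10), against 9% of all genes, and for 4 that were lower (PSMB5, PSMD11, PSMD12 and PSME2), against 5.41%. The count of 4 at an unadjusted p rested on single arrays: it was 1 without empty liposomes 1, with 3.54% of all genes, and 10 without empty liposomes 2, with 11.7%. The values were higher in 34 genes and lower in 11, where 55% of all genes were higher. Without empty liposomes 1, 29 of the 45 were higher. The median was 0.12 against 0.05 over all genes. PSMD9 differed by 0.73 (SE 0.193; adjusted p = 0.405) and PSMD5 by 0.69 (SE 0.235; adjusted p = 0.482). PSMB1 differed by 0.48 (SE 0.175), PSMA2 by 0.93 (SE 0.367) and PSMD12 by -0.49 (SE 0.192). The second probe of PSMD12 differed by 0.04, so its lower value rests on 1 probe.

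Against dilution buffer, the control without liposomes, the count past an adjusted p of 0.05 was again 0 of 45, as for all genes (0%). PSMD9 (0.82, SE 0.193; adjusted p = 0.407) and PSMB1 (0.63, SE 0.175; adjusted p = 0.435) were higher at an unadjusted p under 0.05, 2 of 45 against 5.83% of all genes. None was lower at that threshold, against 4.31%. The arrays did not overlap for 5 genes that were higher (PSMB1, PSMD6, PSMD7, PSMD9 and PSMG4), against 13% of all genes, and for 2 that were lower (PSMB6 and PSMD11), against 8.3%. These counts were near or below the shares of all genes. The values were higher in 26 genes and lower in 19, where 54.1% of all genes were higher. The median over the 45 was 0.04, the same as over all genes. Under cyclic loess normalization 22 were higher and the median was -0.02, and without dilution buffer 1 it was 0.12, so that no direction was settled. This comparison and the preceding ones share the MRX34 arrays.

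The controls were compared with each other to set the carrier apart from the buffer. No proteasome gene passed at an adjusted p under 0.05 in empty liposomes against dilution buffer, and no gene did (0%). None passed at an unadjusted p under 0.05 either, where 2.74% of all genes were higher and 3.03% lower. Without empty liposomes 2, 6 proteasome genes were lower at that threshold, with 7.78% of all genes. The arrays did not overlap for PSMC1, PSMD2, PSMD7 and PSMD12, which were higher (6.11% of all genes), and for PSMD5, which was lower (5.55%). The values were higher in 21 genes and lower in 24, where 46.9% of all genes were higher. The median was -0.02 against -0.03 over all genes. The smallest p values belonged to PSMA3 (-0.57, SE 0.267; adjusted p = 0.766) and PSMD5 (-0.46, SE 0.235; adjusted p = 0.766).

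Most members of the alpha ring shared their 2 lowest arrays, a pattern picked out after the values were seen. In PSMA1, PSMA2, PSMA3, PSMA4, PSMA5 and PSMA6, 6 of the 7 members, empty liposomes 1 and 3 were the 2 lowest of the 9 arrays. PSMA3, for example, measured 10.94, 11.12 and 11.19 in dilution buffer, 10.21, 11.00 and 10.33 in empty liposomes, and 10.60, 11.17 and 11.24 in MRX34. Empty liposomes 2 lay among the dilution buffer and MRX34 arrays, so the groups overlapped. Each MRX34 array was above the empty liposome array of the same number, but neither the labels nor the values establish these as pairs. The second probe of PSMA3 was also lowest on these arrays, at 9.50 and 9.65, against 9.75 to 10.26 on the other 7. The probes of PSMA1 disagreed, since its second probe was highest on empty liposomes 1, at 9.62. The second probe of PSMA6 was lowest on MRX34 2, at 10.70, with the empty liposomes at 11.01, 10.91 and 10.89. PSMA2 had the widest range, with 7.75, 9.30 and 8.26 in empty liposomes and 8.79 to 9.70 on the other 6 arrays.

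PSMA1 to PSMA6 all had lower values in empty liposomes than in dilution buffer, with a median of -0.39 over the 7 tested members of the ring. The same 6 had higher values in MRX34 than in empty liposomes, with a median of 0.40 over the 7. Both medians use the same empty liposome arrays. Between MRX34 and dilution buffer 3 were higher and 4 lower, with a median of -0.01. PSMA7 lay above background on none of the empty liposome arrays and 1 of the MRX34 arrays, so no direction was read from it there.

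The pattern was not limited to the alpha ring. It was found in 9 of the 45 proteasome genes (20%), the other 3 being PSMD14, PSMD5 and PSMG1, and in 1461 of all genes (9.5%). No member of the beta ring and no ATPase of the base showed it. Of the partner genes described further on, 6 of 33 did (18.2%), among them POMP, the factor that matures the core, and the shuttle RAD23B. Another lowest pair, dilution buffer 3 and empty liposomes 2, was shared by PSMB2, PSMB4 and PSMB7 of the beta ring.

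The level of PSMA1 to PSMA6 went in part with array brightness, and whether brightness plays a part in their pattern was not tested. The mean of PSMA1 to PSMA6, each centred on its own mean, was 0.17, 0.14 and 0.01 in dilution buffer, -0.59, 0.16 and -0.50 in empty liposomes, and -0.06, 0.43 and 0.25 in MRX34. Matched by equal number, which no label states as a pairing, each MRX34 array was above its empty liposome array. Across numbers the groups overlapped, since empty liposomes 2 (0.16) lay above MRX34 1 (-0.06). The mean intensity of the same arrays was 425, 616 and 249, then 163, 491 and 325, and last 323, 512 and 496. The 4 dimmest arrays were the 4 lowest for these genes. Empty liposomes 3 and MRX34 1 were alike in brightness, at 325 and 323, and lay at -0.50 and -0.06. With array brightness as a covariate the median of the alpha ring was 0.26 for MRX34 against empty liposomes and -0.25 for empty liposomes against dilution buffer. With the level of GNMT and OTC as a covariate these were 0.34 and -0.35. Leaving out empty liposomes 1 gave 0.32 and -0.23, empty liposomes 2 gave 0.55 and -0.55, and empty liposomes 3 gave 0.35 and -0.29. Without MRX34 2, MRX34 against empty liposomes gave 0.28.

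**Figure D5:**
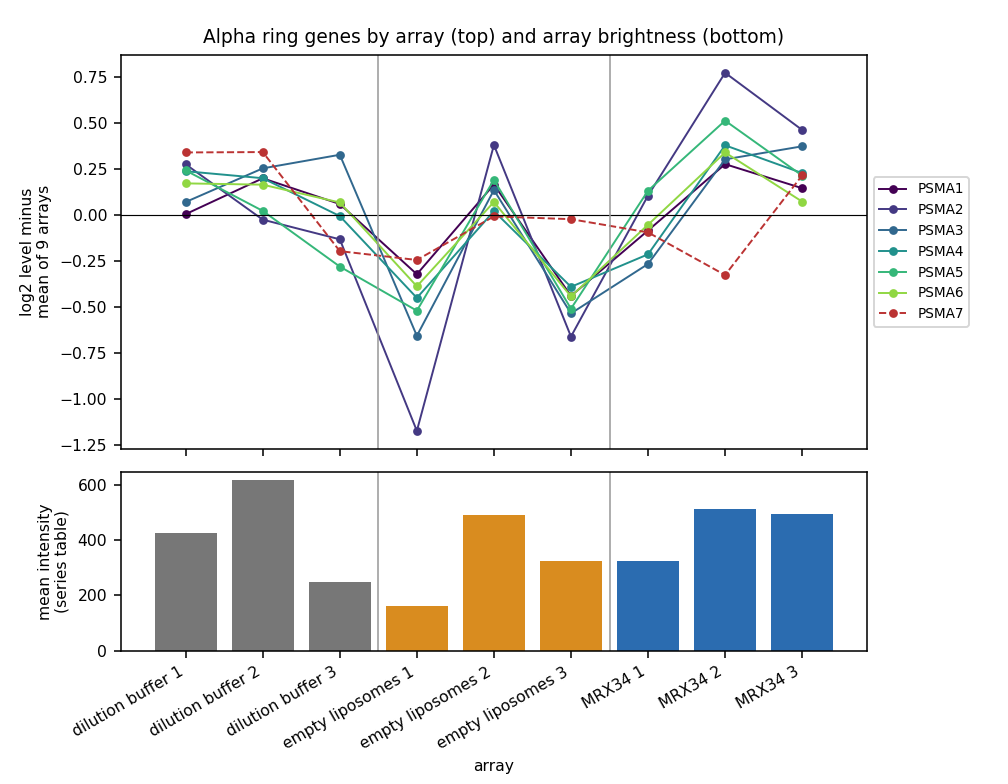
Log2 level of the 7 alpha ring genes minus each gene's mean over the 9 arrays (top, lines) and the mean background-subtracted intensity of each array (bottom, bars). PSMA1 to PSMA6 are lowest on empty liposomes 1 and 3, with mean intensities of 163 and 325. PSMA7 (dashed) takes another course, but it lay above background on only 3 of the 9 arrays.

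The promoters of PSMA2, PSMA3 and PSMA5 are shown as members that were low on the same arrays and share the CCAAT box, the site of the factor NF-Y. The box was searched as CCAAT on both strands of the same 250 bases and is in capitals. It was found in 19 of the 42 proteasome genes (45.2%) and in 37.0% of 27305 genes. Of the 6 alpha ring genes that were low on empty liposomes 1 and 3, PSMA2, PSMA3, PSMA4 and PSMA5 held the box, and PSMA1 and PSMA6 did not. PSMA4 held it, with the antioxidant core, before the last of its 3 starts. Of the other motifs searched, the heat shock pair GAANNTTC was in 0 of 42 promoters, against 7.0% of all genes. The interferon core GAAANNGAA was in 5 of 42 (11.9%), against 8.4%, among them those of PSMB10 and PSME2. No match says only that these letters are not in these windows.
PSMA2 (chr7:42932175-42932424, minus strand): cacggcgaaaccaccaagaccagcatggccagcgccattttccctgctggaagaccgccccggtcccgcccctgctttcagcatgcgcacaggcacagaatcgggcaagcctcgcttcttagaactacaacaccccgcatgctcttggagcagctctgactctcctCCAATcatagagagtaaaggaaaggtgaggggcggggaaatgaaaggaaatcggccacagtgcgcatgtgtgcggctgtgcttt
PSMA3 (chr14:58244593-58244842, plus strand): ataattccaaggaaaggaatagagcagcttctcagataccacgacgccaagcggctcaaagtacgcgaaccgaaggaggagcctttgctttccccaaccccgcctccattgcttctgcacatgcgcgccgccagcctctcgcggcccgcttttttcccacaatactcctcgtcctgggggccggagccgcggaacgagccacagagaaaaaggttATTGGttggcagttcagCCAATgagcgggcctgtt
PSMA5 (chr1:109426449-109426698, minus strand): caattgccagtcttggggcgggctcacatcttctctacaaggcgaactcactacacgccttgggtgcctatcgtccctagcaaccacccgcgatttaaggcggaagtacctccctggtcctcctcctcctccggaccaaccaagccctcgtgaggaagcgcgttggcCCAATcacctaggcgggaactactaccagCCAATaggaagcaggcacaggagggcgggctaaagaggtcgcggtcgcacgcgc

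The partners of the proteasome, a list of 35 genes for ubiquitin supply, shuttling, deubiquitination and assembly that are no members, were read in the same way. In MRX34 against both controls, 19 of the 33 tested were higher and 14 lower, where 55% of all genes were higher. The median of the partners was 0.10. None passed limma's test after adjustment. At an unadjusted p under 0.05, 4 of 33 were higher, where 6.88% of all genes were, and 0 were lower, where 4.24% were. PAAF1, which binds the ATPases of the base before assembly, measured 9.06, 8.83 and 8.74 in dilution buffer, 8.76, 9.07 and 8.84 in empty liposomes, and 9.09, 9.48 and 9.48 in MRX34. MRX34 1 lay just above the highest control. The difference was 0.47 (SE 0.176; adjusted p = 0.410).

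ECPAS (KIAA0368 in the table), a scaffold that holds core and regulatory particle, measured 9.16, 8.86 and 8.90 in dilution buffer, 9.01, 9.08 and 8.87 in empty liposomes, and 9.38, 9.70 and 9.28 in MRX34. The groups did not overlap, and the difference was 0.47 (SE 0.170; adjusted p = 0.401). PITHD1 differed by 0.48 (SE 0.162; adjusted p = 0.378), also without overlap. ZFAND2A, a zinc finger protein that binds proteasomes in cells under arsenite, differed by 0.46 (SE 0.176; adjusted p = 0.412), by 0.69 from dilution buffer and by 0.24 from empty liposomes. PAAF1, ECPAS and the ubiquitin shuttle RAD23B (0.50) were higher than in empty liposomes at an unadjusted p under 0.05, 3 of 33 against 6.29% of all genes. PAAF1, ECPAS, ZFAND2A and PITHD1 were higher than in dilution buffer, 4 of 33 against 5.83%. No partner passed that threshold in empty liposomes against dilution buffer, where 2.74% of all genes were higher and 3.03% lower.

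The partners named for their role showed no common direction in MRX34 against both controls. POMP differed by 0.21 (SE 0.202), and the ubiquitin receptor ADRM1 by -0.28 (SE 0.162). NFE2L1, the regulator of the subunit genes, differed by -0.35 (SE 0.216; adjusted p = 0.543). The deubiquitinases of the base, USP14 and UCHL5, differed by 0.42 (SE 0.289) and 0.10 (SE 0.159). USP14 lay above background on 8 arrays.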

How the data were processed

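Hep3B tumour RNA was measured on 9 human Illumina expression arrays, 3 for each of dilution buffer, empty liposomes and MRX34, grouped by the sample names in the labels. The intensity values used were deposited quantile normalized, with the background left in; this was read from the numbers, whose sorted values nearly coincide between arrays and reach 47789. Per the file headers, each intensity column is followed by a detection p-value. A second deposited table holds intensity with the background subtracted and no normalization between arrays. No source used here names the scanner software or the authors' method of normalization.

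In limma 3.58.1 (R 4.3.3) the background was removed by normexp, with the negative-control level inferred from the detection p-values. After an offset of 16 was added, the arrays were quantile normalized and converted to log2 units; the deposited values were not on a log2 scale. The offset shrinks differences of dim probes. Probes with a detection p under 0.05 on at least 3 of 9 arrays were kept. Of 47322 probes, 43906 carried a gene symbol; RefSeq (GRCh38.p14) lists 27035 of these as current and 4626 as synonyms, and 12245 kept the name in the table. All 77 proteasome probes carried a current symbol. The brightest probe stood for each of 15387 genes. Group means were fitted on all 9 arrays and compared by limma's moderated two-sided test, adjusted by Benjamini-Hochberg across every gene tested, at a threshold of 0.05. The fit was tested on simulated data. The number of arrays limits the precision, and 13690 to 20459 named probes per array lay above background.

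The proteasome genes and all gene lists were chosen with earlier results of these data known. Values on every array are given for the 4 proteasome genes with the smallest p in MRX34 against both controls, the 2 with the smallest p in each other comparison and the 6 catalytic subunits; genes singled out after their values were seen are said to be so, and PSMA2, PSMD12, PAAF1 and ECPAS in the text or plots were added for their unadjusted p. Alternatives covered the normalization, the background, the table used, the filter, the probe rule, the variance model, array weights, covariates, pairing and the arrays in the fit.

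Arrays of different groups share replicate numbers. The deviations of equally numbered arrays from their group means correlated at 0.44, 0.49 and 0.28 between empty liposomes and MRX34, but at -0.19, 0.30 and -0.32 between dilution buffer and empty liposomes. Arrays of unequal number gave 0.34 for dilution buffer 1 with empty liposomes 3, and 0.32 for dilution buffer 3 with empty liposomes 1. Between empty liposomes and MRX34, unequal numbers gave -0.57 to 0.006. This check, taken from the values, cannot settle whether equal numbers are pairs. Since no label states a pairing, the results come from the fit without a block, and a fit with the replicate block stands among the alternatives.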

Additional observations from a re-analysis of the deposited data

How the results depend on the processing

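With array weights, limma called 6 proteasome genes in MRX34 against both controls (PSMA2, PSMB1, PSMD9, PSMD12, PSMD13 and PSMG4; 1465 of all genes), 1 against empty liposomes (PSMD9; 267) and 5 against dilution buffer (PSMB1, PSMB10, PSMD8, PSMD9 and PSMG4; 2828), where the reported fit called 0 of all genes. Those weights rest on few arrays: 8.12 for dilution buffer 2 and 4.65 for MRX34 3, against 0.262 to 1.94 for the other 7. In empty liposomes against dilution buffer the weights called 0 proteasome genes and 6 of all genes. Every other alternative called 0 proteasome genes and at most 3 of all genes in each comparison. The replicate block called 0 of 45 in each comparison and changed no other call. The median difference from dilution buffer, 0.0429, was -0.0204 under cyclic loess and 0.0165 to 0.124 when 1 array was left out, highest without dilution buffer 1; that from both controls was 0.0714 to 0.147, that from empty liposomes 0.0783 to 0.138 and that between the controls -0.0392 to -0.0014. PSMB8, -0.105, turned to 0.0490 with array weights and to 0.0786 without empty liposomes 2, and ranged from -0.231 to 0.0786 when 1 array was left out. The cause was not tested. PSMD9 spanned 0.37 to 1.25 (adjusted p 0.00851 to 0.687), PSMB1 0.47 to 0.62 (0.0245 to 0.687) and PSMD11 -1.12 to -0.45 over the alternatives, with the sign kept in each. The medians of the group as a whole and its counts at an adjusted p under 0.05 were recomputed. Of these, 181 values stayed within 1 SD between replicates (0.0593) or 1.5 times the count, 2 medians moved further and 3 counts rose. Counts at an unadjusted p moved more. Against empty liposomes, 4 higher genes became 1 without empty liposomes 1 and 10 without empty liposomes 2. The covariates and fits without pairs of arrays were run with earlier results known. PSMA7, PSMB8 and PSMD9 lay near background, where an offset limits what can be seen.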
